A study of Homo sapiens and Mus musculus with 10 samples.

Results

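The genes described here make, lengthen, desaturate and activate fatty acids, together with the gene of the transcription factor that drives many of them. They are ACLY, ACACA, FASN, ELOVL5, ELOVL6, SCD, FADS1, FADS2, ACSL3 and SREBF1. They were chosen by name, as the rows of the 2 HEK293T count tables whose gene symbol is one of these 10, out of 16619 distinct symbols in the tables. All 10 had a row in each table, on 12 RefSeq transcripts in all. For 8 genes the tables hold the same transcript. ACACA was counted on NM_198834.1 in the stress set and on NM_198836.1 in the genotype set, and ELOVL5 on NM_001242830.1 and NM_021814.4.

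HEK293T is an established human embryonic kidney line, and RNA was sequenced after removal of ribosomal RNA. The stress set held 1 wild-type (WT) library of cells given 300 nM thapsigargin for 6 h (TG, which blocks calcium uptake into the endoplasmic reticulum and causes ER stress), 1 of cells deprived of glucose for 24 h (GD, which the submitters describe as a metabolic oxidative stress) and 1 of mock-treated cells. The genotype set held 1 library each of UFD1s-deficient GD, UFD1s-deficient mock, WT GD and WT mock cells. UFD1 is a cofactor of the ATPase p97. The sources used here do not give how the deficient line was made or whether it is 1 clone. Nor do they say whether libraries came from separate cultures, so p-values measure the spread between these libraries, which may be technical.

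Much of the carbon of newly made fatty acids comes from glucose. ACLY cleaves citrate in the cytosol to acetyl-CoA, ACACA carboxylates it to malonyl-CoA, and FASN joins these units into palmitate. ELOVL6 lengthens palmitate, SCD desaturates the product to oleate, and ELOVL5, FADS1 and FADS2 lengthen and desaturate polyunsaturated fatty acids. ACSL3 links fatty acids to CoA at the ER and on lipid droplets. SREBF1 encodes SREBP1, an ER membrane protein that is cut in the Golgi and then activates promoters of this pathway from the nucleus, often together with the CCAAT-binding factor NF-Y and with Sp1.

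Promoter windows of RefSeq on GRCh38.p14, which run from 250 bases before to 50 bases after a transcription start, were matched by symbol for 9 of the 10 genes, in 13 windows. FASN was not matched. The upstream bases of SCD, ACLY and ACSL3 are shown because these are genes whose RNA fell in GD and which hold the CCAAT box in this stretch. Since they were picked on both, they cannot show a link between the fall and the box. Capitals mark CCAAT on either strand (ATTGG where it lies on the other strand). The stretches are chr10:100346983-100347232 on the plus strand for SCD, chr17:41919023-41919272 on the minus strand for ACLY and chr2:222860786-222861035 on the plus strand for ACSL3, each written 5′ to 3′ toward the start site.
SCD: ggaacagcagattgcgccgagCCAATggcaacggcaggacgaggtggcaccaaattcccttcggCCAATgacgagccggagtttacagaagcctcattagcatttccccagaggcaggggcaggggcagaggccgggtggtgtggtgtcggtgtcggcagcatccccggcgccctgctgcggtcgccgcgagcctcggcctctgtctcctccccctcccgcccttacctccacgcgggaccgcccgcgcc
ACLY: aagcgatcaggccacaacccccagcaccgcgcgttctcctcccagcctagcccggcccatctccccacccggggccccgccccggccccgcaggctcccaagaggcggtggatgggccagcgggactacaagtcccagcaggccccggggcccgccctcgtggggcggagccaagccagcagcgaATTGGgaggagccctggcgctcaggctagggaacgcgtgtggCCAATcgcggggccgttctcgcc
ACSL3: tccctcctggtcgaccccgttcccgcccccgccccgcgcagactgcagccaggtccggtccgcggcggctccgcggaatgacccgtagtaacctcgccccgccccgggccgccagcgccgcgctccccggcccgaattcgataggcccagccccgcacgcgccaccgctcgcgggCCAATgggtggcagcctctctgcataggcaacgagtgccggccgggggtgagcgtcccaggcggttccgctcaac
The CCAAT boxes begin 229 and 186 bases before the start of SCD and 75 bases before that of ACSL3. In ACLY they begin 65 and 23 bases before the start used here, which is 136 and 94 bases before its other start. Searched on both strands, CCAAT was found in the windows of 6 of 9 genes (ACACA, ACLY, ACSL3, ELOVL5, FADS2 and SCD) and in 8 of their 13 windows, against 34.6% of all 35116 windows of this length. The windows of ACLY overlap each other, as do those of FADS2, and the same ACLY boxes are counted in each ACLY window. The Sp1 box GGGCGG was found for 8 of 9 genes, in 10 of 13 windows, against 45.0% of all windows. The E-box CACGTG was found in the ELOVL5 window and no other of these, against 7.26% of all windows. The sterol regulatory element form TCACNCCAC was in 0 of the 13, against 1.13% of all. No motif searched holds another, and a match or its lack describes the letters of these windows alone.

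The 7 libraries held 11461365 to 19024327 reads on transcripts. The ribosomal precursor RNA45SN5, listed in the stress table, took 8.31% of the reads in TG, 10.69% in GD and 7.73% in mock. CDH2, an adhesion gene of this line, had 3437 to 5110 reads, and the neurofilament gene NEFL, which this kidney line is known to express, had 1146 to 3445. KRT8 and KRT18 had 0 to 77 and 8 to 37 reads. Of the 4 kidney and epithelial markers, 3 had a row. Leukocyte, adipocyte and hepatocyte markers summed to at most 8, 2 and 5 reads in a library, from 1 of 3 markers with a row in each list. UFD1 had 0, 0 and 10 reads in TG, GD and mock of the stress set on NM_001035247.2. On NM_005659.6 it had 193 and 199 reads in deficient GD and mock cells and 107 and 168 in WT GD and mock cells. No source used here says that either row spans the changed part of UFD1, so they are no check of the genotype.

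The 10 genes together took 0.345% of the reads in TG, 0.269% in stress-set GD, 0.355% in deficient GD and 0.325% in genotype-set WT GD. In mock libraries they took 0.483% in the stress set, 0.621% in deficient and 0.657% in WT cells of the genotype set. SCD and FASN gave 73.1% to 84.9% of these reads in every library. Per kilobase of transcript, SCD was highest in the stress-set mock library at 460 CPM per kb (CPM, TMM-scaled reads relative to library size), then FASN at 142 and FADS1 at 137, which differ little, FADS2 at 55.9, ACLY at 3.49, ELOVL6 at 1.72, ELOVL5 at 0.462, ACACA at 0.0722 and SREBF1 at 0.0397. The transcript length of ACSL3 was not matched. The order was the same in the WT mock library of the genotype set. In deficient mock cells SREBF1, at 0.679 CPM per kb, stood just above ACACA at 0.641. FASN stood higher there, at 364 CPM per kb in deficient and 373 in WT mock cells. Each row counts a single transcript and need not hold all of a gene's reads. RefSeq lists 1 curated coding transcript each for SCD, FASN and FADS1, 2 for ELOVL6, 3 for FADS2 and 4 each for ACLY and ACSL3. It lists 5 each for ACACA and ELOVL5 and 13 for SREBF1, whose rows held at most 82, 42 and 38 reads. The order given is therefore one of single rows and need not be that of whole genes.

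**Figure D1:**
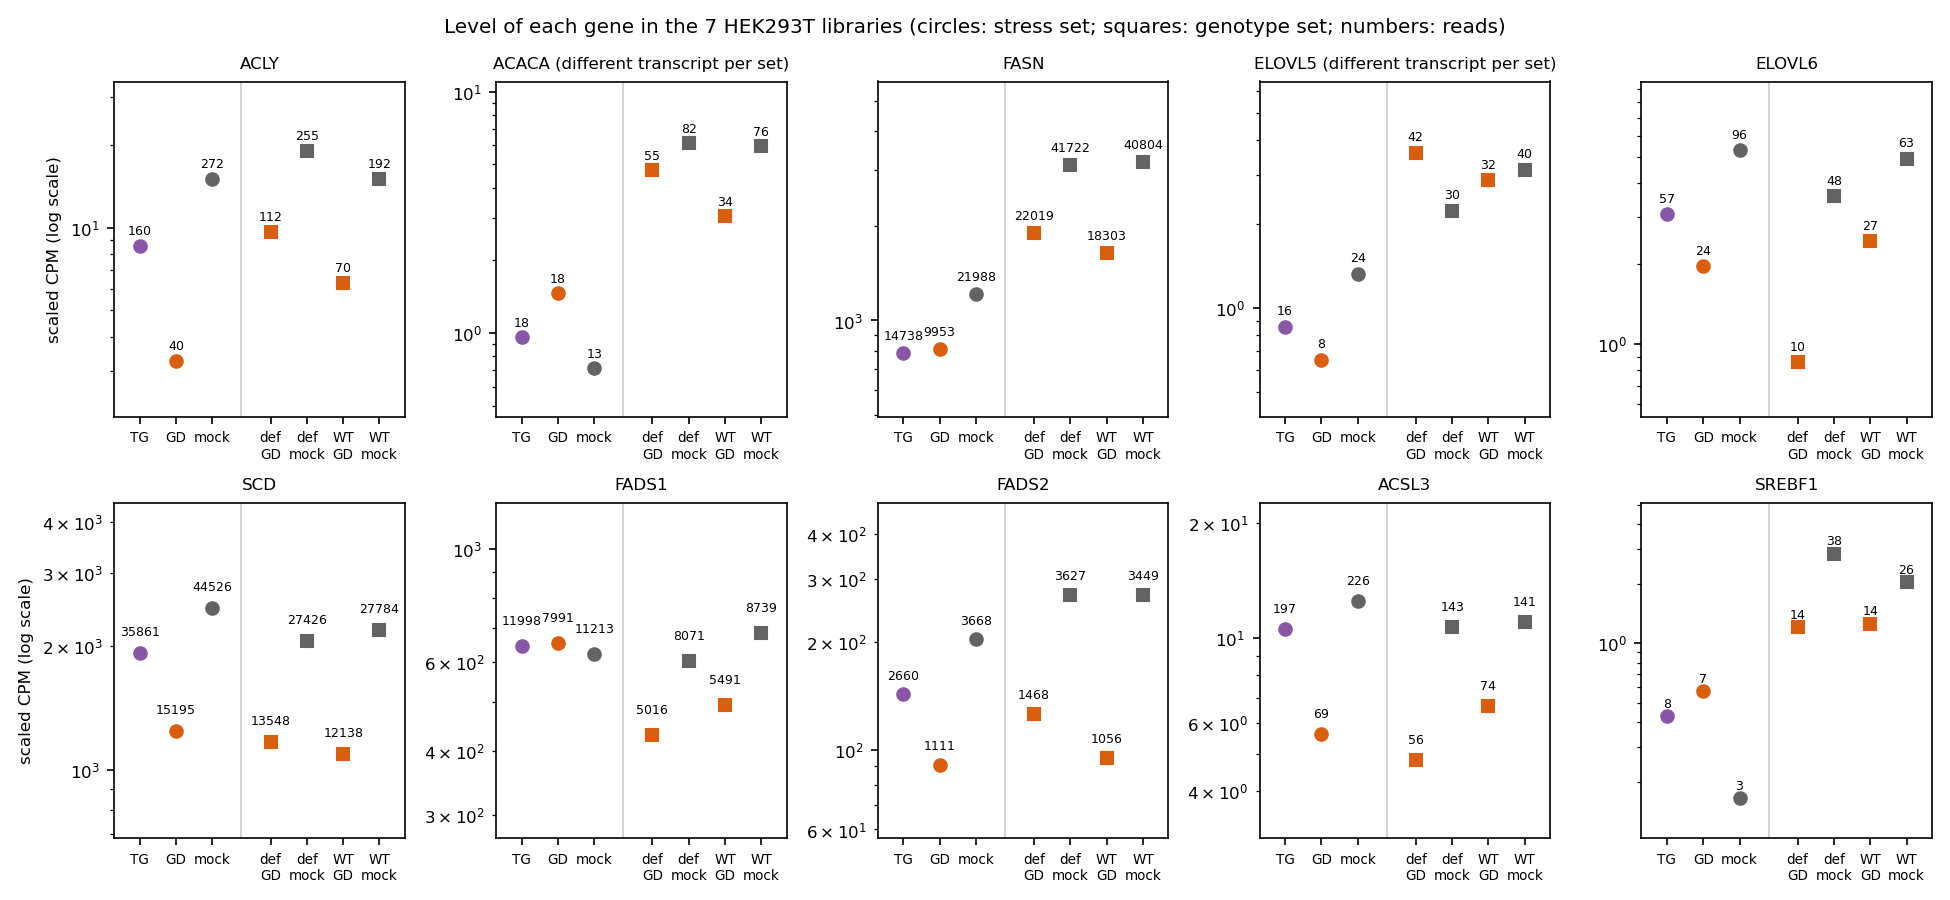
Level of each gene in the 7 HEK293T libraries, in scaled CPM on a log axis, with circles for the stress set, squares for the genotype set and the reads printed above each point (def, UFD1s-deficient). For ACLY, FASN, ELOVL6, SCD, FADS2 and ACSL3 each GD point lies below the mock point of its own set and genotype, while FADS1 does so in the genotype set and not in the stress set.

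Most of the tested fatty acid genes were lower after glucose deprivation. Of the 8 genes counted on 1 transcript in both sets, 6 fell and 0 rose at an adjusted p under 0.05. They were ACLY, FASN, ELOVL6, SCD, FADS2 and ACSL3, which fell by 0.76 to 1.46 on the log2 scale. FADS1 and SREBF1 did not pass. The test was edgeR's quasi-likelihood test over 3 pairs of GD and mock libraries (stress-set WT, UFD1s-deficient and genotype-set WT), with Benjamini-Hochberg adjustment over all 10368 shared transcripts, of which 20.9% were called, 11.1% lower and 9.75% higher. The median log2 change was −0.98 over the 8 genes and −0.02 over all tested transcripts, whose quartiles were −0.30 and 0.25. In the RNA of whole cultures, a lower level in every cell and fewer cells with the transcript cannot be told apart. The scaled levels given below by gene are set side by side across the sets, whose tables were scaled separately. The share of all transcripts whose GD and mock levels did not overlap was not counted, so such gaps have no background here.

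ACLY, which makes the acetyl-CoA, had 40, 112 and 70 reads in the stress-set, deficient and genotype-set WT GD libraries, against 272, 255 and 192 in the mock libraries in the same order. These are 3.27, 9.62 and 6.29 scaled CPM in GD and 15.1, 19.0 and 15.0 in mock. Every GD level was below every mock level. The log2 change was −1.45 (SE 0.252, 95% interval −2.01 to −0.89, n = 3 pairs, edgeR adjusted p = 0.00472). The fall was deepest in the stress set, at 4.61-fold (exact 95% counting interval 3.30 to 6.60), against 1.98-fold (1.58 to 2.49) in deficient and 2.39-fold (1.81 to 3.19) in WT cells of the genotype set. The ACLY transcript shares 156 exonic bases with AC125257.2 on the other strand (GENCODE v29, GRCh38), and since the use of strand in counting is not given, reads of the pair cannot be told apart.

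ACACA, the carboxylase that commits acetyl-CoA to fatty acids, had few reads. It had 18 reads in stress-set GD against 13 in mock. In the genotype set it had 55 and 34 reads in deficient and WT GD cells, against 82 and 76 in mock. In the genotype-set table alone, fitted by edgeR with genotype and treatment as terms, its log2 change was −0.65 (SE 0.319, 95% interval −1.32 to 0.02, adjusted p = 0.129). This was not called, and the interval leaves room for a fall of 2-fold.

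FASN, the fatty acid synthase, was among the most abundant transcripts. Its level was 812, 1892 and 1644 scaled CPM in stress-set, deficient and genotype-set WT GD cells, against 1217, 3114 and 3196 in their mock cells. Each GD library was below its own mock library, but the genotype-set GD levels were above the stress-set mock level, across tables that were scaled separately. FASN fell by 0.76 on the log2 scale (SE 0.0951, 95% interval −0.97 to −0.55, n = 3 pairs, edgeR adjusted p = 0.00112). By pair it was 1.50-fold lower in stress-set GD (exact 95% counting interval 1.46 to 1.53), 1.65-fold (1.62 to 1.67) in deficient and 1.94-fold (1.91 to 1.98) in WT GD cells.

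Of the elongases, ELOVL6, which acts on palmitate, had 24, 10 and 27 reads in stress-set, deficient and genotype-set WT GD cells, against 96, 48 and 63 in mock. All 3 GD levels, 0.859 to 2.43 scaled CPM, lay below the mock levels of 3.58 to 5.31. Its log2 change was −1.46 (SE 0.353, 95% interval −2.25 to −0.67, n = 3 pairs, edgeR adjusted p = 0.0186). That call was lost without the deficient pair, where the WT libraries alone gave −1.24 (edgeR adjusted p = 0.117). ELOVL5, which lengthens polyunsaturated chains, had 8 reads in stress-set GD against 24 in mock, and 42 and 32 reads in deficient and WT GD cells of the genotype set against 30 and 40 in mock. In the genotype-set table its log2 change was 0.28 (SE 0.434, 95% interval −0.63 to 1.19, edgeR adjusted p = 0.662). No change was called, and the interval leaves room for a rise of 2-fold.

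SCD, the desaturase that makes oleate, had the most reads in the stress set. It had 15195, 13548 and 12138 reads in stress-set, deficient and genotype-set WT GD cells, against 44526, 27426 and 27784 in mock. The scaled levels were 1240.4, 1164 and 1090.4 CPM in GD and 2464, 2047 and 2176 CPM in mock, and did not overlap. SCD fell by 0.94 on the log2 scale (SE 0.0870, 95% interval −1.13 to −0.74, n = 3 pairs, edgeR adjusted p = 0.000337). The pairs were alike in size, with SCD 1.99-fold lower in stress-set GD (exact 95% counting interval 1.95 to 2.02), 1.76-fold (1.72 to 1.79) in deficient and 1.996-fold (1.95 to 2.04) in WT GD cells.

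FADS2, which starts the desaturation of essential fatty acids, had 1111, 1468 and 1056 reads in stress-set, deficient and genotype-set WT GD cells, against 3668, 3627 and 3449 in mock. Its levels were 90.7 to 126 scaled CPM in GD and 203 to 271 in mock, without overlap. It fell by 1.26 on the log2 scale (SE 0.102, 95% interval −1.49 to −1.03, n = 3 pairs, edgeR adjusted p = 0.000233), the smallest adjusted p of the 8 genes. FADS1, the desaturase that acts after it, had 7991, 5016 and 5491 reads in GD, against 11213, 8071 and 8739 in mock. Its scaled levels of 652, 431 and 493 CPM in GD overlapped those of 621, 602 and 685 CPM in mock. The log2 change was −0.30 (SE 0.116, 95% interval −0.56 to −0.04, n = 3 pairs, edgeR adjusted p = 0.0967), which was not called.

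The FADS1 pairs did not move alike. The log2 ratio of GD over mock was 0.072 in the stress set, against −0.48 in deficient and −0.47 in WT cells of the genotype set. With library totals in place of TMM scaling the stress-set value turned to −0.077, on a scale where the median transcript stood at −0.17. A set by treatment term was fitted because these pairs had been seen to differ, so its test on the same values is no independent evidence. It put the response in the genotype set at −0.53 relative to the stress set on the log2 scale (SE 0.0865, 95% interval −0.71 to −0.35, edgeR adjusted p = 0.000315). The stress set has 1 library of each kind, so all of the spread in that fit, on 1 residual degree of freedom, comes from the genotype set. Of all transcripts tested for this term 10.4% were called, 4.81% lower and 5.63% higher, and FADS1 was 1 of the 8 genes called. In the genotype-set table alone, where 16.7% of 11975 transcripts were called lower, 7 of the 10 genes were lower, with FADS1 at −0.48 (SE 0.0509, edgeR adjusted p = 4.42e-07) as the added call. That fit also has 1 residual degree of freedom. FADS1 and FADS2 are neighbours on chromosome 11 in opposite directions. The FADS1 transcript shares 142 exonic bases with exons of FADS2 (GENCODE v29, GRCh38), and reads there cannot be assigned to either gene. The counted FADS2 transcript shares 0 exonic bases with a gene on the other strand, so this overlap is with other FADS2 transcripts.

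Setting each gene against FADS1 within a library removes the scaling. FADS2 had 13.9, 29.3 and 19.2 reads per 100 FADS1 reads in stress-set, deficient and genotype-set WT GD cells, against 32.7, 44.9 and 39.5 in mock. SCD had 190, 270 and 221 in GD, against 397, 340 and 318 in mock. FASN had 125, 439 and 333 in GD, against 196, 517 and 467 in mock. In each pair the ratio of all 3 genes to FADS1 was lower in GD than in mock, and the exact 95% counting intervals did not meet. FADS1 had the smallest fall of the 8 tested genes, and these 3 had been called lower. The direction therefore follows from the changes given above and is no separate evidence. In TG the same ratios were 22.2 for FADS2, 299 for SCD and 123 for FASN, each below the stress-set mock ratio. Counting intervals cover counting error only, since reads carry no molecular identifiers.

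**Figure D2:**
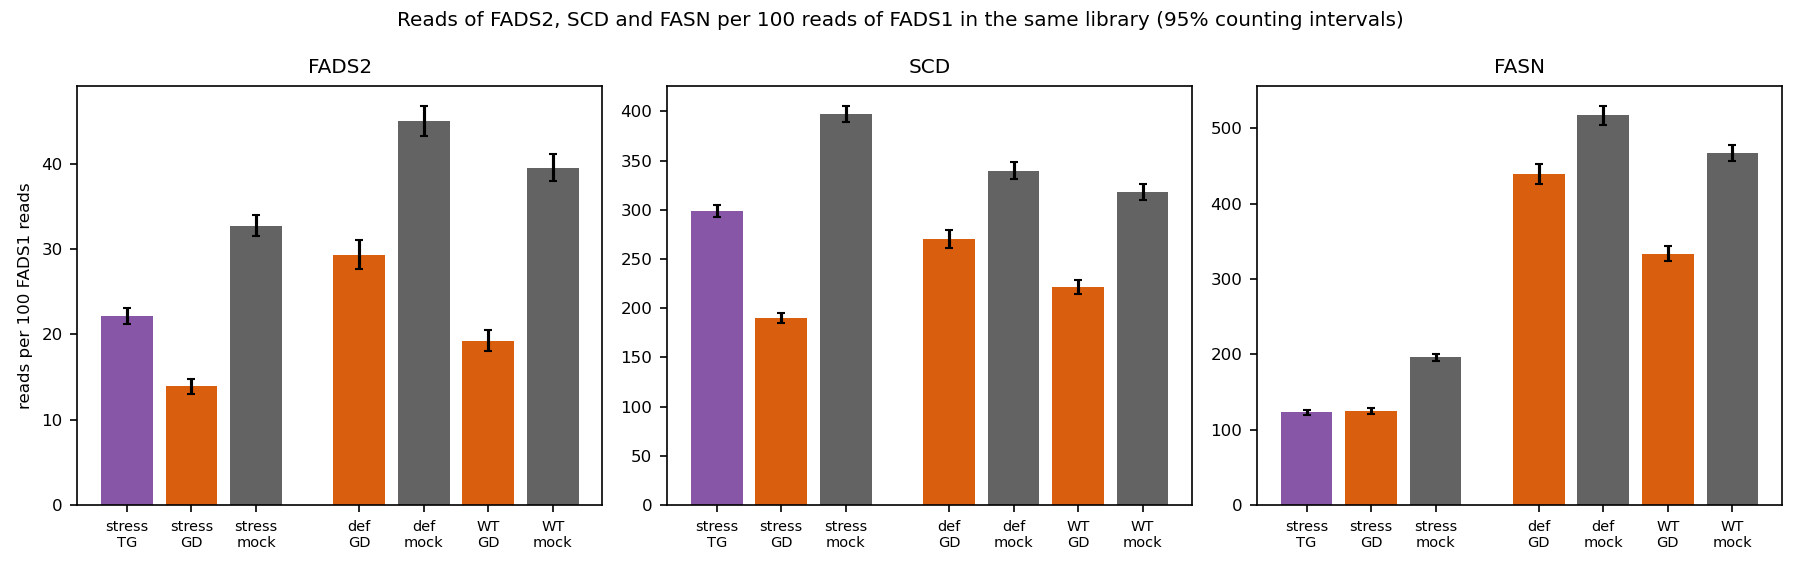
Reads of FADS2, SCD and FASN per 100 reads of FADS1 in the same library, on axes from 0, with bars by library and exact 95% counting intervals. Every treated bar stands below the mock bar of its own set and genotype, as for FADS2 at 22.2 in TG and 13.9 in GD against 32.7 in mock of the stress set.

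ACSL3, the acyl-CoA ligase, had 69, 56 and 74 reads in stress-set, deficient and genotype-set WT GD cells, against 226, 143 and 141 in mock. Its levels were 4.81 to 6.65 scaled CPM in GD and 10.7 to 12.5 in mock, without overlap. It fell by 1.01 on the log2 scale (SE 0.214, 95% interval −1.49 to −0.54, n = 3 pairs, edgeR adjusted p = 0.0109). With the WT libraries alone it stood at −0.95 (edgeR adjusted p = 0.0897). SREBF1, the gene of the pathway's activator, had 7, 14 and 14 reads in GD, against 3, 38 and 26 in mock. Its log2 change of −0.45 (SE 0.593, 95% interval −1.78 to 0.88, edgeR adjusted p = 0.626) had no stable sign, and it turned to 0.13 with the WT libraries alone.

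**Figure D3:**
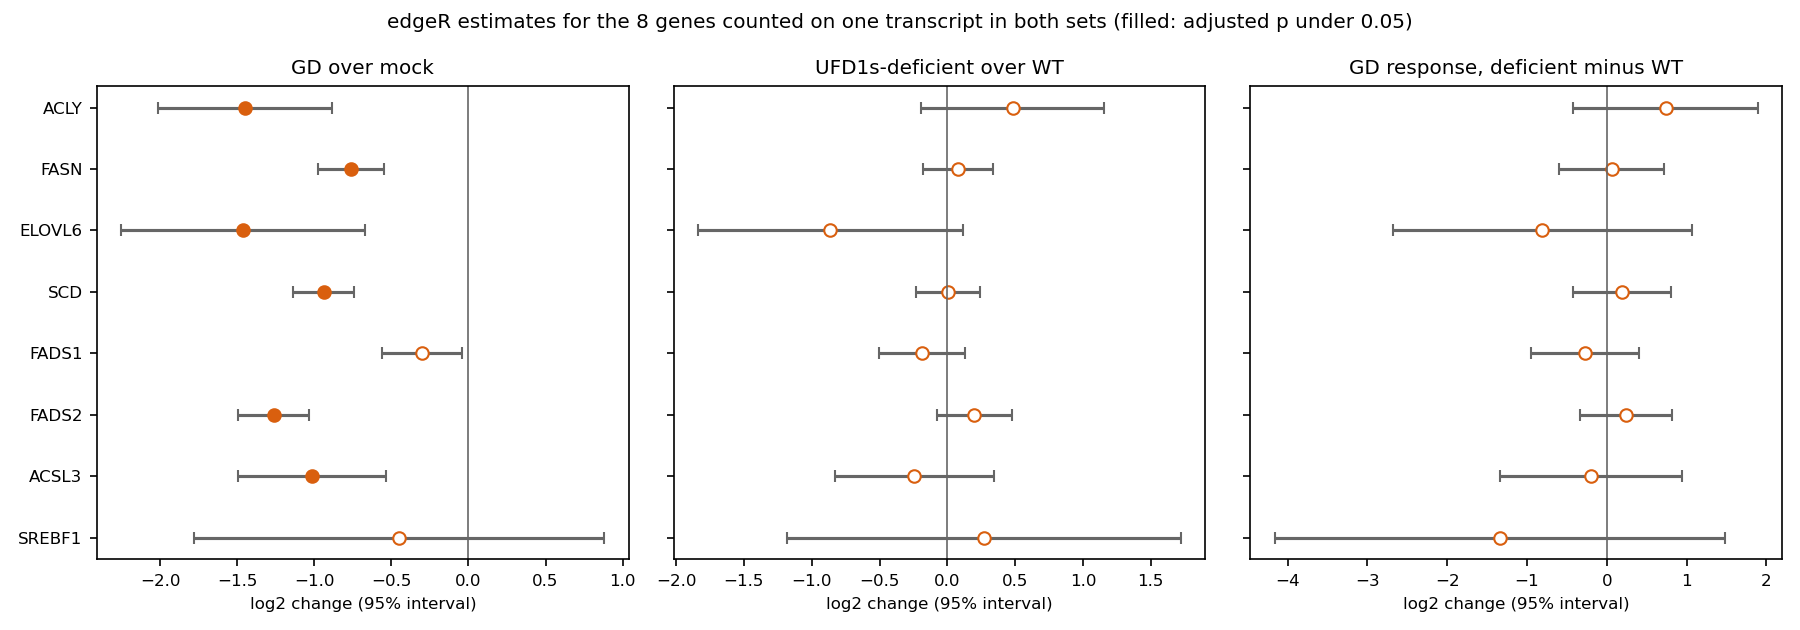
Estimates from edgeR with 95% intervals for the 8 genes counted on 1 transcript in both sets, as log2 changes for GD over mock, UFD1s-deficient over WT and the GD response in deficient minus WT cells, with filled points for an adjusted p under 0.05. In the GD panel 6 genes are filled, and in the other panels 0 are.

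The GD calls rest on few libraries. Setting each GD library against its own mock library matters to them. With treatment as the only term 1 of the 8 genes was called, FADS2, which was lower (edgeR adjusted p = 0.0341). In that fit 0.0868% of all 10363 transcripts were called lower and 0.135% higher, so calls were lost over all transcripts too. Leaving out each library in turn left 4 to 7 of the 8 called lower and 0 higher, while the share of all transcripts called lower ran from 2.58% (without deficient mock) to 20% (without stress-set GD). ACLY, FASN, SCD and FADS2 were called in all 6 of these fits. These are not 6 separate checks, because a term takes up the partner of the library left out. Each fit then rests on 2 of the 3 pairs, and leaving out either library of a pair gives nearly the same estimates. Taken by size within a pair (at least 2-fold, with at least 50 reads in the higher library), 4 of 7 genes past the read minimum were lower in stress-set GD, 2 of 7 in deficient GD and 2 of 8 in genotype-set WT GD, against 3.57%, 4.17% and 4.42% of all rows past it. None of the genes was higher by that rule, against 3.73%, 2.14% and 2.39%. Of the 8 genes, 6 had a ratio below 0 in 3 of 3 pairs, against 28.4% of the shared transcripts.

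Some marker lists also differed between GD and mock. Of 3 fibroblast markers, 2 had a row. They summed to 3.76, 2.58 and 0.988 scaled CPM in stress-set, deficient and genotype-set WT GD cells, against 11.5, 8.13 and 8.07 in mock, nearly all from PDGFRA, while COL1A2 had 0 to 2 reads. The 3 neuronal markers, mostly NEFL, summed to 99.6, 194 and 135 scaled CPM in GD, against 172, 266 and 237 in mock. Both lists were lower in each GD library than in its own mock library. The kidney and epithelial markers, mostly CDH2, summed to 281 scaled CPM in stress-set GD, against 282 in mock, and were higher in the genotype set, at 421 and 410.0 in deficient and WT GD cells, against 272 and 287 in mock. The 3 endothelial markers, of which VWF was counted in both tables, summed to 4.90, 5.50 and 2.78 scaled CPM in GD and 4.04, 6.79 and 3.21 in mock, higher in stress-set GD and lower in the other 2 GD libraries. The part of these in the fall of the fatty acid genes was not tested.

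Thapsigargin was compared with the mock library that also serves stress-set GD, with 1 library each and no test. By their point estimates ACLY, ELOVL6, FASN, FADS2 and SCD were lower in TG by less than 2-fold, while the sign of the FADS1 ratio depended on the scaling. ACLY had 160 reads in TG and 272 in mock, a 1.75-fold lower level (exact 95% counting interval 1.44 to 2.15). ELOVL6 had 57 reads in TG and 96 in mock, 1.74-fold lower (1.24 to 2.46). FASN was 1.54-fold lower (1.51 to 1.57), at 790.2 scaled CPM in TG and 1217 in mock. FADS2 was 1.42-fold lower (1.35 to 1.50), at 143 scaled CPM in TG and 203 in mock. SCD was 1.28-fold lower (1.26 to 1.30), at 1923 scaled CPM in TG and 2464 in mock. The order of fold here, with ACLY and ELOVL6 at the top and SCD near the end, rests on 2 libraries.

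ACSL3 had 197 reads in TG and 226 in mock, and its 1.18-fold lower level had a counting interval that spans 1 (0.974 to 1.44). FADS1 stood at 643 scaled CPM in TG and 621 in mock, a log2 ratio of 0.052 that turned to −0.065 with library totals alone, where the median transcript stood at −0.10. ACACA had 18 reads in TG and 13 in mock, ELOVL5 16 and 24, and SREBF1 8 and 3, all too few to show a difference. By the rule of size, 0 of 7 genes past the read minimum were lower in TG and 0 higher, against 3.31% and 4.73% of 9116 rows. The median log2 ratio of TG over mock was −0.42 over the 10 genes and 0.01 over all rows past the minimum. Against the same mock library, the median in GD was −0.88. Because GD and TG share that library, their values stand side by side and are not independent. TG lasted 6 h and GD 24 h, so the kind of stress and its length cannot be told apart here. A ratio below 0 in the 3 GD pairs and in TG was seen for 6 of the 8 genes on a shared transcript, against 20.7% of all shared transcripts.

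**Figure D4:**
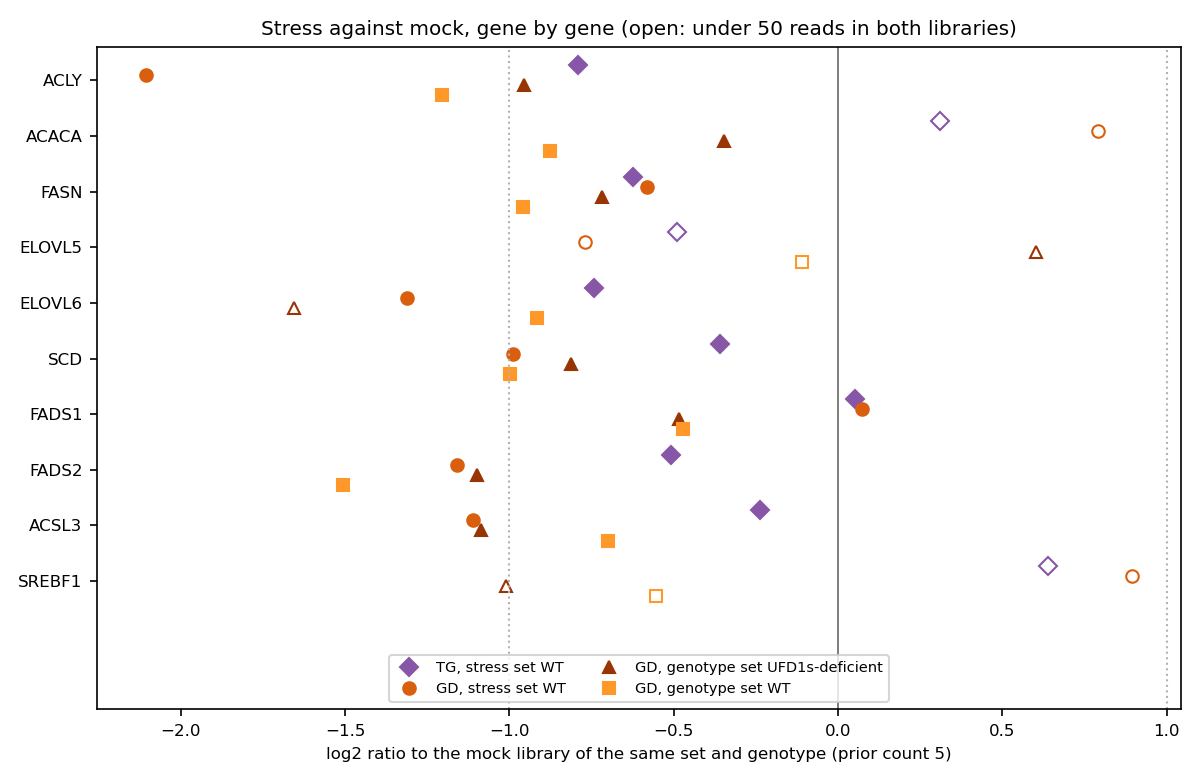
The log2 ratio of each treated library to the mock library of its own set and genotype, with a prior count of 5, for TG (6 h) and the 3 GD libraries (24 h), open where both libraries had under 50 reads and with dotted lines at 2-fold. FASN, SCD, FADS2, ELOVL6, ACLY and ACSL3 lie left of 0 in all 4 comparisons, and the TG points lie nearer to 0 than the GD points for each of these but FASN.

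Loss of UFD1s was tested in the same 6 libraries, and none of the 8 genes was called. edgeR called 0 at an adjusted p under 0.05, 0 had an unadjusted p under 0.05 (against 14.2% of all transcripts), and DESeq2 called 0. Of all 10368 transcripts 1.11% were called, 0.781% lower and 0.328% higher. In mock cells SCD stood at 2047 scaled CPM in deficient and 2176 in WT cells, and FASN at 3114 and 3196. The log2 difference of deficient over WT was 0.0048 for SCD (95% interval −0.23 to 0.24), 0.08 for FASN (−0.18 to 0.34), 0.20 for FADS2 (−0.08 to 0.48) and −0.19 for FADS1 (−0.51 to 0.13). For ACLY, whose row had fewer reads, it was 0.48 (−0.19 to 1.16) and for ELOVL6 −0.86 (−1.84 to 0.11), so these intervals leave room for changes of 2-fold. Adjusted p-values from edgeR ran from 0.422 to 0.993.

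Fits to the genotype set alone called more. With its 4 libraries and the shared transcripts, 2 of the 8 genes were called, against 18.7% of all 10368 transcripts (9.91% lower, 8.83% higher). FADS1 was lower in deficient cells at −0.19 (edgeR adjusted p = 0.00174) and FADS2 higher at 0.19 (edgeR adjusted p = 0.0291). Over every transcript of its table, where 13.5% of 11975 were called (7.56% lower, 5.92% higher), FADS1 was lower at −0.19 (edgeR adjusted p = 0.0155) and FADS2 was not called at 0.19 (edgeR adjusted p = 0.132). These fits have 1 residual degree of freedom, and edgeR joins the spread of a transcript with that over all transcripts. In the fit of 4 libraries FASN had an edgeR adjusted p of 1.41e-130 for GD, so the spread used was very small.

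The response to GD was then compared between genotypes. For 0 of the 8 genes, and for 0 of 10368 transcripts, did edgeR call a difference between deficient and WT cells, while 1.19% had an unadjusted p under 0.05 and DESeq2 called 0 as well. The difference of responses, deficient minus WT, was 0.74 on the log2 scale for ACLY (95% interval −0.42 to 1.89), −0.81 for ELOVL6 (−2.68 to 1.06), 0.24 for FADS2 (−0.33 to 0.82), 0.19 for SCD (−0.42 to 0.80), 0.06 for FASN (−0.59 to 0.72) and −0.27 for FADS1 (−0.95 to 0.41). The WT response in this fit joins the WT pairs of both sets, while the deficient pair lies in the genotype set alone. Differences between the sets thus enter these values. Within the genotype set, log2 ratios of GD over mock in deficient and WT cells were −0.48 and −0.47 for FADS1. They were −0.95 and −1.21 for ACLY, and −1.10 and −1.51 for FADS2. The intervals are wide, and the 1 residual degree of freedom is the difference between the WT pairs. These intervals do not show that the genotypes respond alike.

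The genes around these enzymes were read from lists of 67 genes beside a cholesterol list. Of 45 tested, 7 fell, 5 rose and 33 did not pass in GD, with a median log2 change of 0.03, against 11.1% of all transcripts lower and 9.75% higher. With library totals 8 were lower and 2 higher, against 14.7% and 6.59% of all transcripts. With the WT libraries alone they were 2 and 2, against 2.57% and 2.17%. Among other desaturases, SCD5, another stearoyl-CoA desaturase, fell by 1.15 (SE 0.151, n = 3 pairs, edgeR adjusted p = 0.00134). It had 312, 464 and 206 reads in stress-set, deficient and genotype-set WT GD cells and 1123, 893 and 644 in mock. DEGS1, which desaturates dihydroceramide, fell by 0.43 (edgeR adjusted p = 0.00859), a call lost with the WT libraries alone (−0.38, edgeR adjusted p = 0.145). FADS3 rose by 0.90 (SE 0.224, n = 3 pairs, edgeR adjusted p = 0.0212). It had 904, 590 and 582 reads in GD and 407, 560 and 403 in mock. This neighbour of FADS1 and FADS2 moved the other way from FADS2.

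Of 6 tested genes of other acyl-CoA ligases 2 fell, the fatty acid transport proteins SLC27A3 at −1.08 (edgeR adjusted p = 0.0106) and SLC27A4 at −0.58 (edgeR adjusted p = 0.00585). Of 6 other elongation enzymes, HACD3, a dehydratase of the elongation cycle, fell by 0.39 (edgeR adjusted p = 0.0265), and of 5 genes of mitochondrial fatty acid synthesis CBR4 fell by 0.55 (edgeR adjusted p = 0.00699). Of 4 genes that supply carbon and NADPH, IDH1 fell by 0.80 (edgeR adjusted p = 0.0221), with log2 ratios of −0.03 in the stress set, −1.25 in deficient and −1.14 in WT cells, and the malic enzyme ME1 rose by 0.31 (edgeR adjusted p = 0.0321). Of 6 glycerolipid genes the phosphatidate phosphatase LPIN2 rose by 0.36 (edgeR adjusted p = 0.0242), and of 5 AMPK subunits PRKAB2 rose by 0.56 (edgeR adjusted p = 0.00483). The IDH1 call was lost with DESeq2 (−0.80, adjusted p = 0.121) and with the WT libraries alone (−0.58, edgeR adjusted p = 0.172), and its change ran from −0.58 to −1.20 as libraries were left out. With library totals ME1 stood at 0.23 (edgeR adjusted p = 0.0858) and LPIN2 at 0.29 (edgeR adjusted p = 0.0572), both without a call. With the WT libraries alone SLC27A3, HACD3, CBR4, ME1 and LPIN2 were not called (edgeR adjusted p = 0.113, 0.139, 0.0796, 0.254 and 0.165). Each of ME1, LPIN2 and CBR4 was called in 2 of 6 fits with a library left out. Of the 2 tested genes of malonyl-CoA turnover, 0 were called.

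The machinery that controls SREBP gave few calls in GD. Of 8 tested genes, MBTPS2, the protease that makes the final cut of SREBP, rose by 0.32 (edgeR adjusted p = 0.0276) and 0 fell, with a median of 0.04. The MBTPS2 call was lost with library totals (0.24, edgeR adjusted p = 0.0691) and held in 2 of 6 fits with a library left out. SREBF2, the gene of the form that favours cholesterol genes, stood at 0.10, SCAP, the escort of SREBP, at 0.13, and the retention factors INSIG1 and INSIG2 at −0.40 and 0.05, all without a call. INSIG1 had log2 ratios of −0.16 in the stress set, −0.14 in deficient and −0.89 in genotype-set WT cells. The lack of a call does not show a lack of change. The cholesterol list, whose genes SREBP also drives, had 8 of 13 tested genes lower in GD and 0 higher, with a median of −0.64. Of all transcripts 11.1% were lower and 9.75% higher. With the WT libraries alone 3 of 13 were lower, against 2.57% of all transcripts. The 8 genes included IDI1 at −1.12 (edgeR adjusted p = 0.000328), TM7SF2 at −0.99 (edgeR adjusted p = 0.0226) and FDFT1 at −0.66 (edgeR adjusted p = 0.00350). TM7SF2 was called in 2 of 6 fits with a library left out, and ran from −0.58 to −1.37 in them. No gene of these lists was called between genotypes by edgeR, against 1.11% of all transcripts.

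**Figure D5:**
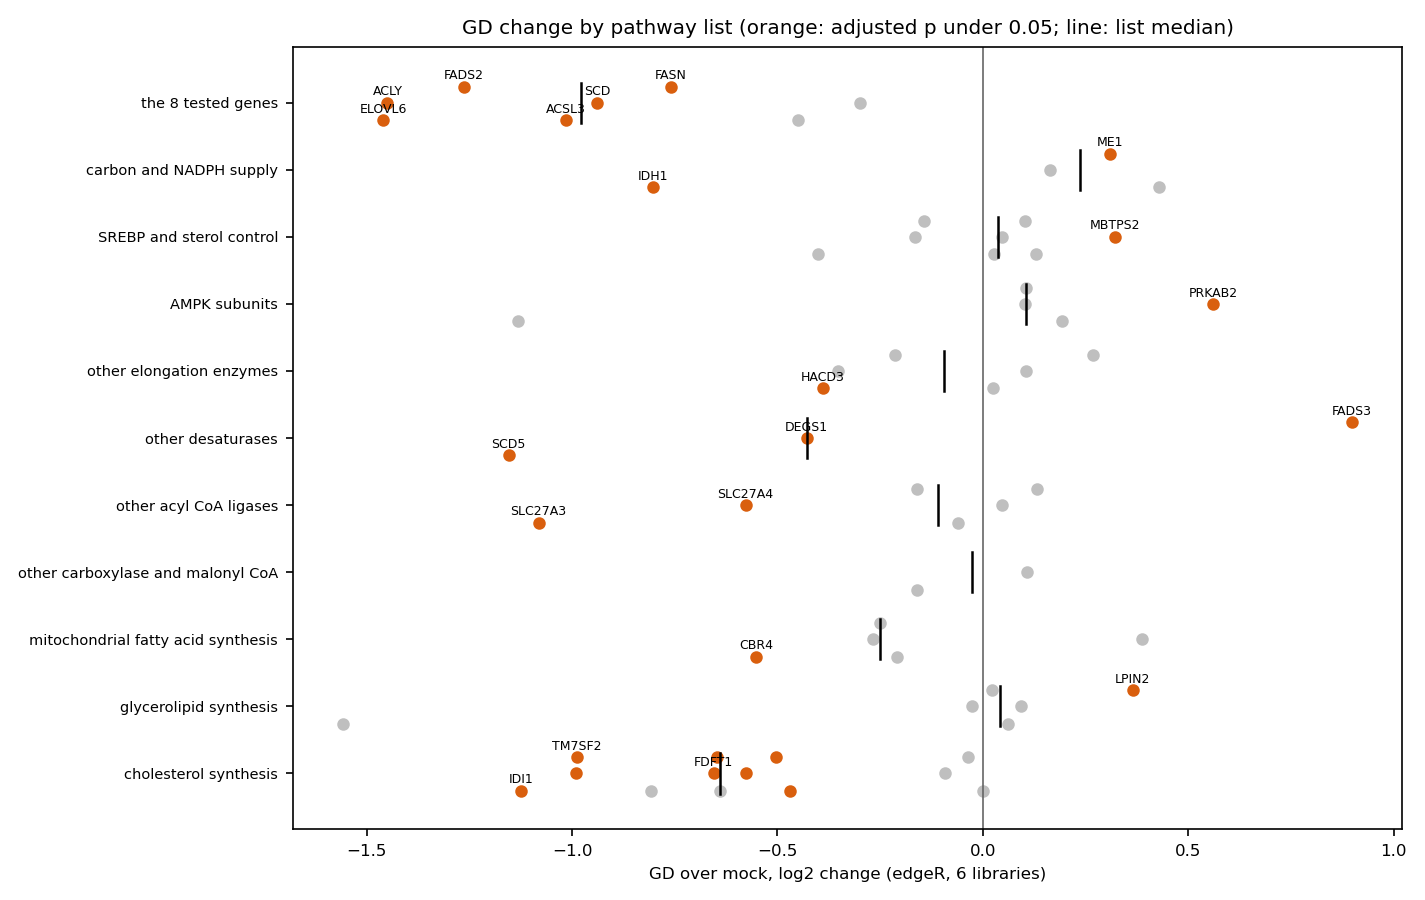
Log2 change of GD over mock from edgeR in 6 libraries for the 8 tested genes (top row) and the lists of related genes, with orange points for an adjusted p under 0.05, names for some of them and a line at each list's median. The top row has its median at −0.98, the cholesterol list at −0.64 and the SREBP control list at 0.04.

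In TG, 38 of the 67 genes passed the read minimum. By size 4 were lower and 1 higher, against 3.31% and 4.73% of all rows past that minimum, with a median log2 ratio of −0.02. The higher one was the AMPK subunit PRKAG1, with 64 reads in TG and 24 in mock (log2 ratio 1.19). Over the 6 AMPK subunits the median was 0.17. SCD5 had 446 reads in TG and 1123 in mock (log2 ratio −1.37), SLC27A3 had 94 and 202 (−1.10), INSIG1 213 and 430 (−1.04), and the AMPK subunit PRKAG2 22 and 67 (−1.43). Other genes with the strongest ratio of their list were IDH1 at −0.66, HACD1 at −0.56, MLYCD at 0.57, NDUFAB1 at −0.41, LPIN2 at 0.32 and the cholesterol gene HSD17B7 at 0.93. Of 12 cholesterol genes 0 were past 2-fold, with a median of −0.24.

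The transcripts with a pattern most like that of the fatty acid genes were sought among 8159 with at least 50 reads in every mock library. Likeness was the Euclidean distance over 4 log2 ratios (the 3 GD pairs and TG) to the median of the 8 genes, which was −1.05 in stress-set GD, −0.98 in deficient GD, −0.94 in WT GD and −0.43 in TG. Among the nearest 5 were the scaffold gene SLC9A3R1 at a distance of 0.198, with −0.99, −0.86, −0.90 and −0.29 in that order, the calmodulin gene CALM3 at 0.211, RASL11B at 0.239 and ZNF326 at 0.257. Of the 5, 4 were again among the nearest 5 with library totals, and 5 with RLE size factors.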

How the data were processed

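RNA of 7 HEK293T libraries was analysed here, and the table of the mouse line N2a was not used here. Per RefSeq transcript, the authors deposited raw counts of reads without normalization, with 16120 rows for the stress set and 11976 for the genotype set. Per the submitters' processing notes, the tools were Bowtie2, cutadapt, bedtools and FastQC, with no versions, on the build hg19 for human and mm10 for mouse reads. How reads were assigned, and whether by strand, is not stated in any source used here. The groups come from the labels, and the sets from the sample titles.

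Counts were tested with edgeR 4.0.16 (R 4.3.3), using TMM factors, filterByExpr (by which 0 shared transcripts were removed) and the quasi-likelihood test on the 6 GD and mock libraries. The terms were set, genotype and treatment (2 residual degrees of freedom, common dispersion 0.0192). In each fit edgeR joins the spread of a transcript with that over all transcripts. Benjamini-Hochberg adjustment at 0.05 ran over all 10368 shared transcripts. A genotype by treatment term was tested in a fit with 1 residual degree of freedom. SE is the absolute log2 change over the square root of F. Comparisons of 1 library with another use a prior count of 5 on log2 ratios of CPM under TMM scaling, called at 2-fold and 50 reads, and exact conditional 95% intervals for counting error. Alternatives were RLE factors, library totals, no filter, a mean CPM of 10, DESeq2 1.42.0, other terms, sets alone and each library left out. A test of the set by treatment term, fitted because the FADS1 pairs had been seen to differ, and fits of the whole genotype-set table were added after the data were seen. The ratios to FADS1 were not among the planned comparisons. Simulated counts with known changes were used to check the scripts.

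The genes and the lists were chosen with earlier results of these data known. From each list the text names up to 4 genes called in GD and the one with the strongest TG ratio, and the 5 transcripts nearest in pattern. Some other values, such as those of the SREBP control genes, were named after their values were seen. A gene that the rule names is not reported here. Lengths and overlaps come from GENCODE v29 on GRCh38, and promoters from RefSeq, other builds than the authors' hg19. Where groups of libraries shrink to a lone library, it is taken to vary like the rest.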

Additional observations from a re-analysis of the deposited data

Results flagged for a closer look

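With TMM scaling, though not with library totals, FADS1 had ratios of opposite sign in GD in the 2 sets. Its log2 ratio of GD over mock was 0.072 in the stress set, with an exact 95% counting interval of the ratio of 1.02 to 1.08, against −0.48 in UFD1s-deficient cells (0.691 to 0.741) and −0.47 in WT cells (0.697 to 0.745) of the genotype set. A set by treatment term, fitted because these values had been seen to differ, was −0.53 on the log2 scale (edgeR adjusted p = 0.000315). It is no independent evidence, and its spread comes from the genotype set alone, on 1 residual degree of freedom. With library totals alone the stress-set value was −0.077 and those of the genotype set −0.55 in deficient and −0.56 in WT cells, so the signs no longer differed, while the term was −0.53 (edgeR adjusted p = 3.48e-08). With RLE size factors it was −0.54 (edgeR adjusted p = 5.40e-06). RNA45SN5 took 10.69% of reads in stress-set GD and 7.73% in mock, and its part in this was not tested.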

How the results depend on the processing

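Of the estimates for single genes, 563 kept direction and side of the threshold across alternatives, 69 lost and 11 gained a call, 16 ratios without a test moved and 8 changed sign. Of the 16 that moved, 2 also changed sign, so that 10 did in all. For GD, ACLY, FASN and SCD were called in 14 of 15 alternatives, FADS2 in 15 of 15, ELOVL6 and ACSL3 in 10 of 14, FADS1 in 5 of 15 and SREBF1 in 0 of 13. These alternatives overlap, since a fit without a stress-set or deficient library nearly repeats that of the genotype set or WT libraries alone. With no replicate block (treatment as the only term), 23 of 10363 transcripts (0.222%) were called in place of 2164, 14 higher and 9 lower. Of the 8 genes 1 was called. The labels give no replicate numbers, so pairs were formed by set and genotype. The GD count was 490 with WT libraries alone (224 higher, 266 lower), 4040 in the genotype set alone (1981 and 2059) and 3934 over its whole table (1931 and 2003). It ran from 494 (without deficient GD) to 4039 (without stress-set WT GD) as each library was left out, with 219 to 1970 higher and 268 to 2069 lower. It was 504 without deficient mock, 3806 without stress-set mock, and in the genotype set 1147 without the GD and 1189 without the mock library of WT cells. Library totals gave 683 higher and 1526 lower, against 1011 and 1153, and RLE 1147 and 1058.

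Between genotypes 115 transcripts were called, 34 higher and 81 lower. The count was 68 with a mean CPM of 10 (12 higher), 222 with DESeq2 (71 higher, 151 lower), 1942 in the genotype set alone (915 and 1027, with 1 of the 8 genes higher and 1 lower) and 1614 over its table (709 and 905, with 1 gene lower). With library totals 22 were higher. It ran from 5 (without deficient GD or deficient mock) to 102 as each library was left out, with 2 to 49 higher and 2 to 66 lower. By size, library totals gave 4 genes lower in genotype-set WT GD in place of 2. A minimum of 10 reads gave 1491 transcripts for TG, 700 lower and 791 higher, in place of 733.

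Signs changed as follows. For GD, SREBF1 was 0.13 with WT libraries alone and ran from −0.97 to 0.12 as libraries were left out. Between genotypes, libraries left out took SREBF1 to −0.53 to 0.82, FASN to −0.067 to 0.23 and SCD to −0.091 to 0.099. With library totals FADS1 was −0.077 in stress-set GD and −0.065 in TG. The ELOVL6 difference between sets was −0.0043 with RLE. By the same test FASN was called at −0.25 with RLE and −0.23 with library totals, and ACLY at 1.12 with library totals. The cause of these changes was not tested. Fewer libraries entered with WT libraries alone or with a library left out, while library totals and RLE used the same libraries under another scaling. Leaving a library out of the set by treatment test leaves no residual degree of freedom and was not run. With 38 reads or fewer for SREBF1, 42 for ELOVL5 and 82 for ACACA, depth limits what could be seen.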

Other observations

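The mock libraries of WT cells differed between the sets in some of these genes. FASN stood at 3196 scaled CPM in the genotype set and 1217 in the stress set, FADS2 at 270.2 and 203, and SREBF1 at 2.04 (26 reads) and 0.166 (3 reads). ACLY stood at 15.0 and 15.1. No test of the mock libraries was made, and the tables were scaled separately.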
